A study of Mus musculus with 18 samples.

Results

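The constitutive proteasome was followed through 35 genes whose platform symbol begins with Psma, Psmb, Psmc or Psmd, leaving out the inducible subunits Psmb8, Psmb9 and Psmb10. They are 35 of the 8251 genes that had a probe set with 1 symbol on the array, and 45 probe sets carried them. Each gene was represented by its probe set of highest mean signal, so 29 genes had their sole probe set and 6 had the brightest of several. The genes comprised 14 of the 20S core (7 alpha, 7 beta) and 20 of the 19S cap (6 ATPases, 14 non-ATPases). The last gene by symbol was Psmc3ip, which encodes a recombination cofactor and no proteasome subunit, so it was counted apart. After a filter on dim probe sets 33 of the 35 genes were tested, which left 32 of the 34 subunit genes. The untested genes were Psmc4, an ATPase of the cap, and Psmd2, a large base subunit of the cap.

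The proteasome degrades proteins that carry ubiquitin chains. Its 20S core is a barrel in which alpha rings form the gate and beta rings hold the cleaving sites, and its 19S cap binds, unfolds and deubiquitinates the substrate. In inflamed tissue interferons raise inducible beta subunits that take the places of the constitutive catalytic subunits, and in heart muscle the proteasome turns over sarcomeric and signalling proteins.

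The series compared hearts of mice with a cardiac-specific TNF-alpha transgene (TNF TG) with hearts of FVB mice, each as total RNA on 1 Affymetrix oligonucleotide array. The TNF TG groups were females and males of 3 weeks (3 arrays each), males of 13 weeks (3 arrays) and females of 40 weeks (3 arrays). The FVB groups, which the labels give without a transgene, were females and males of 3 weeks. All FVB arrays were of 3 weeks, and the 2 later ages differ in sex, so age and sex cannot be told apart. The columns FVB female 1 and 2 hold identical values and were counted as 1 sample, so 2 FVB female and 3 FVB male arrays remained. Neither the promoter that drives the transgene nor the number of animals behind an array is stated in the labels, and p-values therefore measure the spread between arrays, which may be technical.

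Some arrays stood apart. Tnf signal was 5475.5 to 11342.8 on the 6 TNF TG arrays of 3 weeks, against 12.5 to 124.9 on the 5 FVB arrays. The shared FVB female 1 and 2 array had a Spearman correlation of 0.767 to 0.85 with the other 16 arrays, against 0.953 to 0.962 among the other 4 FVB arrays. The arrays labelled FVB male 1 and 2 had Xist signals of 1380.6 and 2705.7, against 5.9 on FVB male 3. The Y-linked Eif2s3y was at 298.7 on FVB male 1, 67.4 on FVB male 2 and 544.9 on FVB male 3, against 115.3 and 40.9 on the FVB female arrays, so male 2 went against its label and male 1 carried both signals. The 10 cardiomyocyte markers were all present and all fell, with a summed signal of 118795 to 232399 on TNF TG arrays of 3 weeks and 225946 to 368472 on FVB arrays. The summed signal of 14 macrophage and myeloid markers was 41807 to 56149 on TNF TG arrays of 3 weeks and 4264 to 6834 on FVB arrays, and all 11 of them that were tested rose. The part of these markers in the subunit results was not tested, and in whole hearts fewer cells of a type and less RNA per cell cannot be told apart.

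Most constitutive subunit genes moved little in TNF TG hearts of 3 weeks. In a limma fit over all 7453 probe sets tested, with Benjamini-Hochberg adjustment and calls at 0.05, 5 of the 32 subunit genes rose, 0 fell and 27 did not pass the test. The background was high, since 46.6% of all probe sets were called, 24.7% higher and 21.9% lower, so the share of subunit genes called, 15.6%, was smaller. The difference was computed as the mean of the female and male differences in log2 signal, TNF TG minus FVB. Its median over the 32 genes was 0.03, against -0.0065 over all probe sets, and its median size was 0.16, against 0.44. Within 0.5 of 0 on the log2 scale lay 28 of the 32 genes, against 55.5% of all probe sets. The median SE was 0.15 for the subunit genes and 0.18 for all probe sets. The genes that rose were Psma3, Psma5, Psmd8, Psmd10 and Psmd14.

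**Figure D1:**
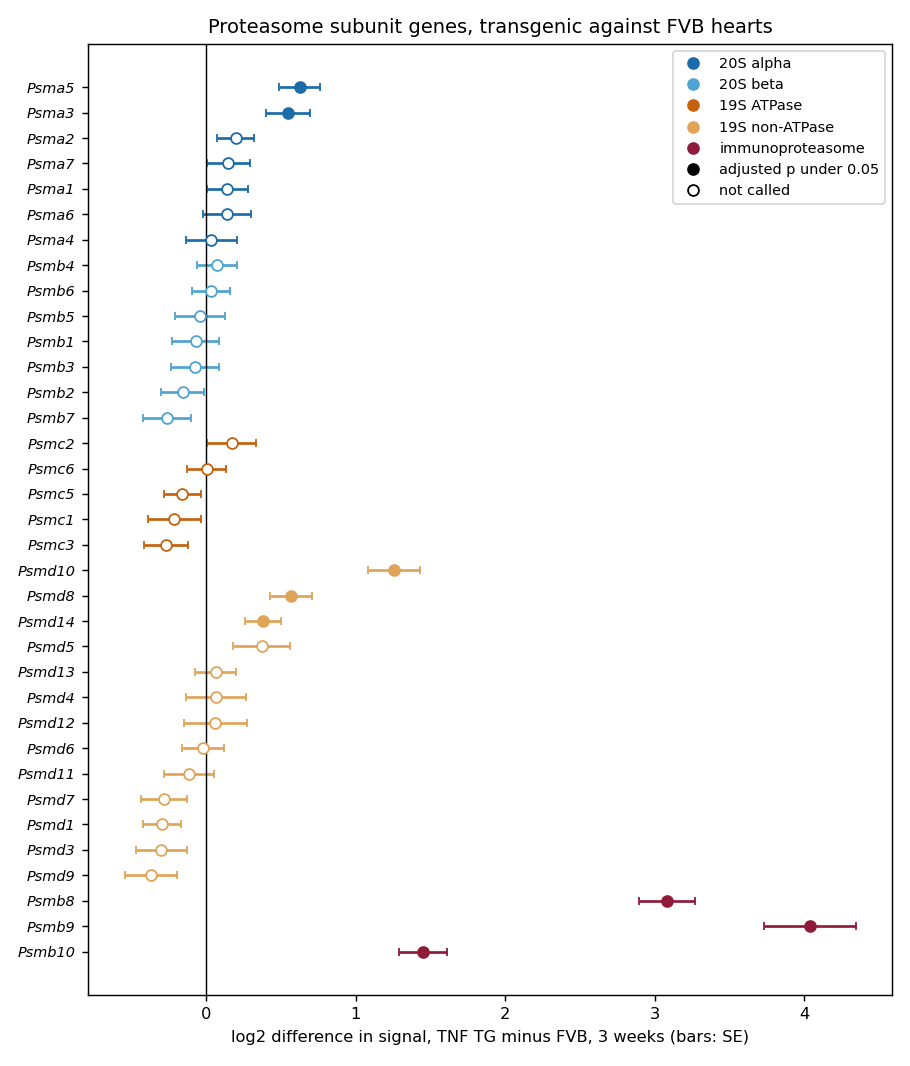
Log2 difference in signal between TNF TG and FVB hearts of 3 weeks (x axis) for the 32 tested subunit genes and the 3 inducible subunits (rows), with bars of 1 SE and filled points for adjusted p under 0.05. The constitutive genes lie between -0.37 and 1.26, and the inducible genes between 1.45 and 4.04.

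Core and cap genes gave similar counts. Of the 14 core genes 2 rose and 0 fell, with a median log2 difference of 0.05. Of the 18 tested cap genes 3 rose and 0 fell, with a median of -0.01. Without the assembly chaperones Psmd5, Psmd9 and Psmd10, whose proteins help to build the cap and are absent from the finished particle, 2 of 15 cap genes rose and the median was -0.02. On single arrays the mean of the core genes minus that of the cap genes, each gene taken relative to its FVB mean, ran from -0.21 to 0.17 in log2 on TNF TG arrays of 3 weeks and from -0.06 to 0.14 on FVB arrays. The upper FVB end was the outlying female array, the other 4 FVB arrays lay between -0.06 and 0.0007, and 4 of the 6 TNF TG arrays lay above those 4. Without the outlying FVB female array the core median became -0.0012, a change of sign, and the cap median -0.15. Without FVB males 1 and 2 by label they were 0.01 and -0.10, so both medians depended on which FVB arrays were kept.

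Averaged over both sexes, the medians of the core's alpha and beta genes lay on different sides of 0. Few of the genes passed the test. The 7 alpha genes had differences of 0.03 to 0.63 with a median of 0.15, all above 0, and 2 of them rose. The 7 beta genes had differences of -0.26 to 0.07 with a median of -0.07, 5 of them below 0, and none rose or fell. The number of alpha genes above 0 was 7 of 7 under quantile normalisation and under a common median, 5 of 7 without the outlying FVB female array, and 4 of 7 when FVB males 1 and 2 were left out as well. The beta median was -0.08 under both scalings and -0.12 without the outlying FVB female array. It was -0.0039 with both identical FVB columns kept and -0.0087 without FVB male 2. Without FVB female 3 the beta median was 0.03 and the alpha median 0.29, both above 0. By sex as labelled, the alpha and beta medians were 0.48 and 0.12 in females, both above 0, and 0.12 and -0.28 in males. No test was made over the genes of a class, since genes measured on the same arrays are no replicates.

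Psmb5, Psmb6 and Psmb7 encode the 3 constitutive catalytic subunits, with chymotrypsin-like, caspase-like and trypsin-like activity in that order. Psmb5 had signals of 3018.9, 2362.9 and 2243.9 in TNF TG females and 1750.6, 2226.9 and 2272.5 in TNF TG males of 3 weeks, against 1591.7 and 2711.4 in FVB females and 2413.5, 3118.1 and 2486.8 in FVB males. The groups overlapped, and both the lowest and the highest of these arrays were FVB arrays. Its log2 difference was -0.04 (SE 0.169, 95% interval -0.399 to 0.318, limma adjusted p = 0.864).

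Psmb6 had signals of 2416.8, 2841.6 and 2480.1 in TNF TG females and 2088.9, 2482.7 and 1689.8 in TNF TG males of 3 weeks, against 2040.6 and 2213.8 in FVB females and 2163.1, 2466.9 and 2546.7 in FVB males. Here the lowest and the highest arrays were both TNF TG arrays, so the FVB arrays lay inside their range. The log2 difference of Psmb6 was 0.03 (SE 0.127, 95% interval -0.236 to 0.301, limma adjusted p = 0.854).

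Psmb7 had signals of 2169.1, 2538.8 and 2669.7 in TNF TG females and 1653.1, 2531.5 and 1472.6 in TNF TG males of 3 weeks, against 2115.9 and 2460.4 in FVB females and 2476.1, 2800.9 and 3262.7 in FVB males. The groups overlapped, with TNF TG males 1 and 3 below every FVB array. Its log2 difference was -0.26 (SE 0.159, 95% interval -0.599 to 0.076, limma adjusted p = 0.189). Without TNF TG male 2 it was -0.38 with an adjusted p of 0.0464, so this array decides whether Psmb7 is called. A dimmer probe set of Psmb5 gave -0.56 (SE 0.282, limma adjusted p = 0.112), and 0 of the 6 further tested probe sets of subunit genes were called, with 3474 called over the 7453 probe sets. The Psmb7 probe set has an f suffix, for probes shared by a family of sequences, and that of Psmb5 an s suffix, for probes shared by several transcripts. RefSeq also lists pseudogenes named after Psmb5, Psmb6 and Psmb7, so signal from related transcripts cannot be told apart.

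The inducible counterparts behaved otherwise. Psmb8, which replaces Psmb5, had signals of 2791.9 to 5768.2 on TNF TG arrays of 3 weeks and 304.2 to 605.6 on FVB arrays (log2 difference 3.08, SE 0.187, limma adjusted p = 2.82e-09). Psmb9, which replaces Psmb6, had 1254.1 to 3677.4 on TNF TG arrays and 64.8 to 274.2 on FVB arrays (4.04, SE 0.309, adjusted p = 3.85e-08). Psmb10, which replaces Psmb7, had 2633.0 to 4414.6 on TNF TG arrays and 870.8 to 1445.9 on FVB arrays (1.45, SE 0.16, adjusted p = 2.54e-06). In none of the 3 did the groups overlap.

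The same values can be read as a ratio of each inducible gene to its constitutive partner on the same array. The log2 ratio of Psmb8 to Psmb5 was 3.16 higher on the 6 TNF TG arrays than on the 5 FVB arrays. For Psmb9 to Psmb6 this shift was 3.95, and for Psmb10 to Psmb7 it was 1.76. In each pair all TNF TG arrays lay above all FVB arrays. No p-value is given for these ratios, since they restate the values above. They show unequal change within a pair and do not give the relative amounts of the proteins.

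**Figure D2:**
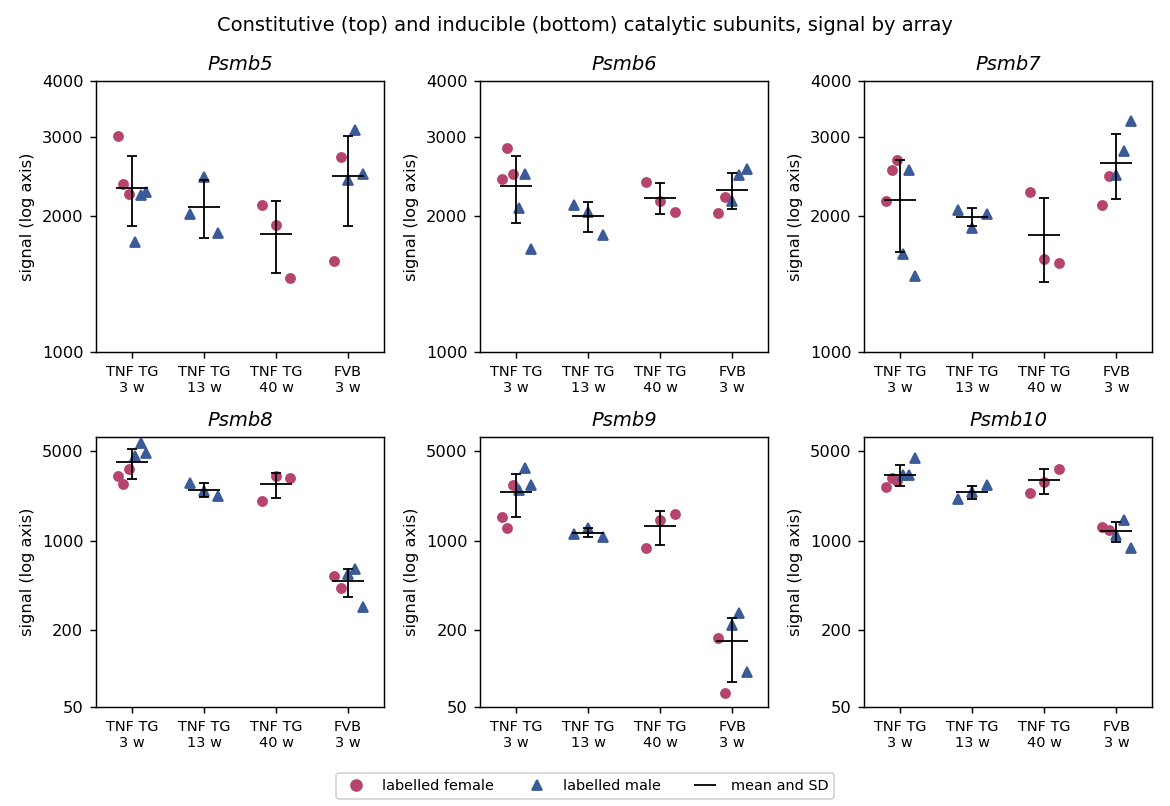
Signal on a log axis (y) by group (x) for the constitutive catalytic subunits Psmb5, Psmb6 and Psmb7 (top) and their inducible counterparts Psmb8, Psmb9 and Psmb10 (bottom), with 1 point per array and bars for mean and SD. The TNF TG and FVB points of 3 weeks overlap in the top row and do not overlap in the bottom row.

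The sequences just upstream of Psmb5 and Psmd10 are shown because Psmb5 hardly moved while Psmd10 had the largest difference of the subunit genes. They are RefSeq promoters of GRCm38.p6, as the 250 bases before the annotated start on the gene's strand, at chr14:54617996-54618245 (minus strand) for Psmb5 and chrX:140956712-140956961 (minus strand) for Psmd10. Capitals mark the core of the antioxidant response element, TGACNNNGC, to which NRF factors bind, in Psmb5, and the CCAAT box, read as ATTGG on the other strand, in Psmd10.
Psmb5: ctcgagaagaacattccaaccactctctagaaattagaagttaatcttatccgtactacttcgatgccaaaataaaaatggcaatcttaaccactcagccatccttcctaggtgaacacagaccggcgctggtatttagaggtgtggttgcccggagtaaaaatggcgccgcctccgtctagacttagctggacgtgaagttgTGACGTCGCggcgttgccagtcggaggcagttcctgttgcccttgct
Psmd10: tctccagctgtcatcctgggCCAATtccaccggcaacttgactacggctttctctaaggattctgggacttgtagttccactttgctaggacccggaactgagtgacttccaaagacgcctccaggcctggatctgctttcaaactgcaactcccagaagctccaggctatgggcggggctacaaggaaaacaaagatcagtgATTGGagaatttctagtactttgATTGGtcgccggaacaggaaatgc

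Both motifs were searched on both strands, and the matches shown do not overlap one another. The Psmb5 match begins at base -47 from the start, and the 3 Psmd10 matches begin at bases -230, -47 and -24. Of the 34 subunit genes 28 had a promoter in the table, taken from the start that the table gives. TGACNNNGC was found in 5 of the 28 (17.9%), namely Psmb5, Psmb6, Psmc6, Psmd9 and Psmd12, against 11.5% of 27025 genes. CCAAT was found in 11 of the 28 (39.3%), against 37.5% of all genes. A match is a description of the letters and says nothing about binding. At 3 weeks none of the 5 genes with TGACNNNGC rose or fell. Of the 11 with CCAAT, Psma3, Psmd10 and Psmd14 rose, beside 5 of the 32 tested subunit genes. Over all probe sets 24.7% were called higher and 21.9% lower. A link between motif and change was not tested.

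Among the alpha genes Psma5 and Psma3, both subunits of the outer rings, rose. Psma5 had a lowest, median and highest signal of 1344.2, 1699.0 and 2207.2 on the 6 TNF TG arrays of 3 weeks, against 944.3, 1022.7, 1216.8, 1474.0 and 1240.5 on the FVB arrays. The groups overlapped through TNF TG female 2 and FVB male 2. The log2 difference of Psma5 was 0.63 (SE 0.137, limma adjusted p = 0.00162), the highest of the alpha class.

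Psma3 had 4515.0, 5486.9 and 6591.4 as lowest, median and highest signal in TNF TG hearts of 3 weeks, against 3181.1, 3275.2, 3670.7, 4541.8 and 5142.0 in FVB hearts. FVB males 2 and 3 lay inside the TNF TG range, and the other FVB arrays below it. Its log2 difference was 0.55 (SE 0.147, limma adjusted p = 0.00634). The call of Psma3 was lost without the arrays labelled FVB male 1 and 2, where the difference was 0.44 with an adjusted p of 0.0672. Its probe set also carries the f suffix, as do those of Psmb4, Psmc3 and Psmd12, so that related transcripts may share its signal.

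The lowest alpha gene was Psma4, with a lowest, median and highest signal of 2803.9, 4043.6 and 4729.2 on TNF TG arrays of 3 weeks, against 3949.2, 3284.6, 4092.6, 3234.6 and 4606.2 on FVB arrays. The FVB arrays lay inside the TNF TG range, and the log2 difference was 0.03 (limma adjusted p = 0.884). Psma2, Psma7, Psma1 and Psma6 had differences of 0.20, 0.15, 0.14 and 0.14 with adjusted p from 0.197 to 0.496.

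The beta gene with the highest difference was Psmb4, a structural subunit, at 0.07 (limma adjusted p = 0.687). Its lowest, median and highest signals were 3379.2, 4395.1 and 4910.2 on TNF TG arrays of 3 weeks, against 4326.3, 3800.5, 3826.7, 3997.3 and 4332.7 on FVB arrays, so the FVB arrays lay inside the TNF TG range. The remaining structural beta genes Psmb1, Psmb3 and Psmb2 had differences of -0.07, -0.08 and -0.16. Psmb7 was the lowest of the class.

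The cap ATPases form the ring that unfolds substrates, and 0 of the 5 tested rose or fell, with a median of -0.16. Psmc2 was highest at 0.17 (limma adjusted p = 0.414), with a lowest, median and highest signal of 2034.7, 2357.5 and 2441.5 on TNF TG arrays of 3 weeks, against 1195.4, 2379.4, 2305.1, 2414.2 and 2596.3 on FVB arrays. The low FVB value is the outlying female array, and the other 4 FVB arrays lay within or above the TNF TG range. Psmc3 was lowest at -0.27 (adjusted p = 0.146), with 1263.5, 1650.4 and 2113.4 on TNF TG arrays, against 1476.7, 2250.0, 1862.8, 2201.5 and 2401.4 on FVB arrays. Here too the lowest FVB array was the outlying female array, and without that array Psmc3 was called lower. Psmc1, Psmc5 and Psmc6 had differences of -0.21, -0.16 and 0.0027. The untested Psmc4 was dim, at 32.5 to 56.1 on TNF TG arrays and 40.6 to 97.4 on FVB arrays, around the floor of 44.675 that was set for low values.

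Of the 13 tested non-ATPase genes 3 rose, with a median of 0.06. Psmd10 encodes gankyrin, an ankyrin-repeat chaperone of cap assembly, and had the largest difference of all subunit genes. Its signals were 291.1, 241.6 and 281.1 in TNF TG females and 376.0, 327.9 and 253.5 in TNF TG males of 3 weeks, against 74.1 and 113.0 in FVB females and 170.2, 147.0 and 172.2 in FVB males. The groups did not overlap. Psmd10 differed by 1.26 in log2 (SE 0.174, limma adjusted p = 2.75e-05), and it passed the test in females (1.56, adjusted p = 3.85e-04) and in males (0.95, adjusted p = 0.00525) as labelled. Without the arrays labelled FVB male 1 and 2, Psmd10 in males was at 0.87 with an adjusted p of 0.10, and its call there was lost.

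Psmd8, a subunit of the cap's lid, had signals of 1038.1, 1049.2 and 1001.8 in TNF TG females and 882.6, 1031.4 and 963.2 in TNF TG males of 3 weeks, against 425.9 and 685.1 in FVB females and 761.0, 853.3 and 881.1 in FVB males. The groups did not overlap, but the highest FVB male and the lowest TNF TG male were nearly level. Its log2 difference was 0.57 (SE 0.141, limma adjusted p = 0.00398). When all 3 doubted FVB arrays were left out together (the outlying female array and males 1 and 2 by label), an alternative chosen after seeing the data, Psmd8 was at 0.35 with an adjusted p of 0.108 and Psma3 at 0.43 with 0.101. Psmd8 and Psmd10 were the 2 of 32 subunit genes whose TNF TG and FVB arrays of 3 weeks did not overlap, against 23.6% of all probe sets.

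Psmd14, the deubiquitinating enzyme of the lid, had a lowest, median and highest signal of 986.0, 1111.2 and 1237.1 on TNF TG arrays of 3 weeks, against 851.6, 822.9, 830.7, 1021.8 and 744.9 on FVB arrays. FVB male 2 was the only FVB array inside the TNF TG range. Psmd14 differed by 0.38 in log2 (SE 0.121, limma adjusted p = 0.0175), and with array weights it was 0.35 with an adjusted p of 0.109. Of the 8 lid genes 2 rose, and their median was 0.02.

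The lowest non-ATPase gene was Psmd9, a chaperone of cap assembly, with a lowest, median and highest signal of 293.8, 417.95 and 541.0 on TNF TG arrays of 3 weeks, against 602.1, 467.9, 666.5, 487.1 and 451.3 on FVB arrays. The groups overlapped, and Psmd9 differed by -0.37 in log2 (SE 0.175, limma adjusted p = 0.0944). Psmd1, a scaffold of the cap's base, had -0.29 (SE 0.126, adjusted p = 0.0666), with 1744.8 to 2309.0 on TNF TG arrays and 2076.0 to 2871.5 on FVB arrays. Both were called lower when the identical FVB columns were counted as separate samples, and Psmd1 also without a filter on dim probe sets. Psmd5, the third assembly chaperone, had 0.37 (adjusted p = 0.123), and the ubiquitin receptor Psmd4 had 0.06. Psmd13 had 0.07, Psmd12 0.06, Psmd6 -0.02, Psmd11 -0.12, Psmd7 -0.28 and Psmd3 -0.30. Psmd2, untested, was dim at 11.2 to 52.1 on TNF TG arrays and 20.9 to 85.7 on FVB arrays. Psmc3ip, which is no subunit, had -0.03 (adjusted p = 0.913).

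**Figure D3:**
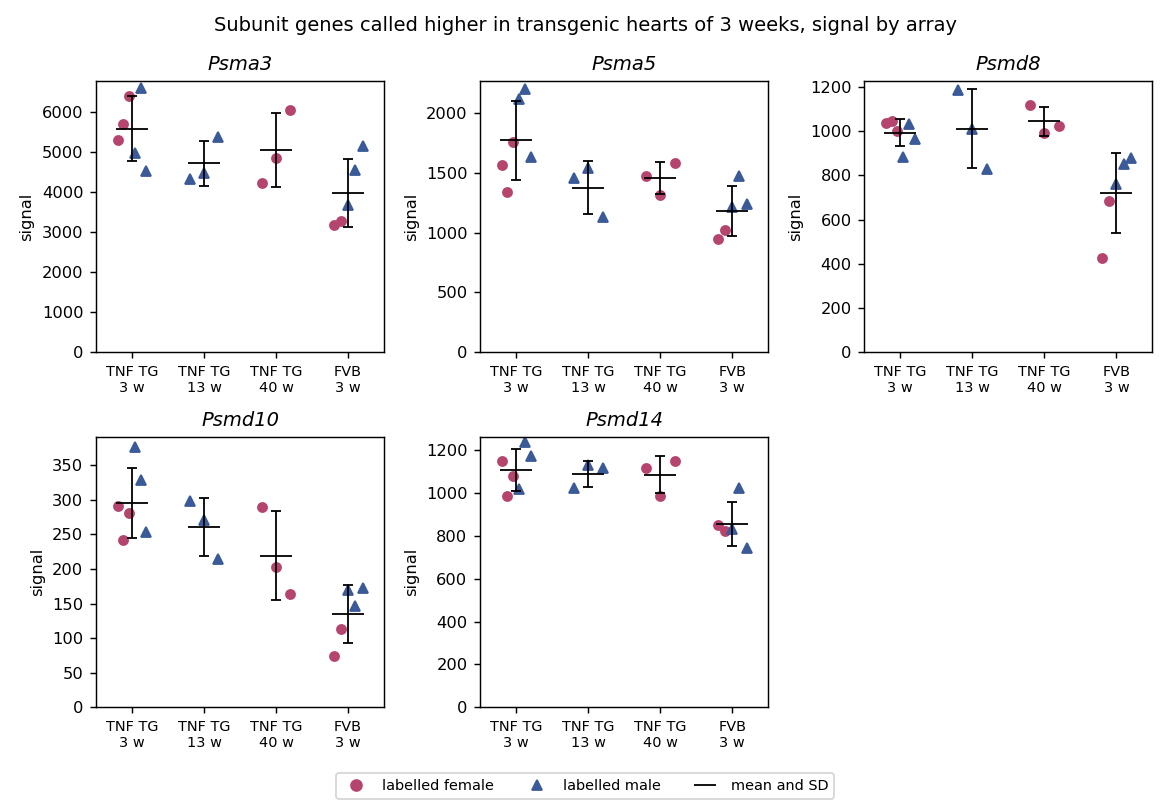
Signal on a linear axis from 0 (y) by group (x) for the 5 subunit genes called higher in TNF TG hearts of 3 weeks, with 1 point per array and bars for mean and SD. For Psmd8 and Psmd10 the TNF TG arrays of 3 weeks all lie above the FVB arrays, and for Psma3, Psma5 and Psmd14 the groups overlap.

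By sex as labelled, the median subunit gene lay above 0 in females and below 0 in males, but no gene's difference between the sexes passed the test. In females the median log2 difference was 0.19, with 24 of 32 genes above 0, and 5 genes rose (Psma3, Psma5, Psmd5, Psmd8 and Psmd10), against 34.7% of all probe sets called. The female count fell to 2 (Psma3 and Psmd10) without the outlying FVB female array, and to 1 (Psmd10) with array weights or a fit of the groups compared. In males the median was -0.21, with 9 of 32 above 0; Psma5 and Psmd10 rose and Psmb7 fell (-0.63, limma adjusted p = 0.0356), against 29.7% of all probe sets called. All 3 male calls were lost without FVB males 1 and 2, which leaves 1 FVB male array that is assumed to vary like the other groups. The test of the male minus the female difference called 0 of the 32 genes and 0 of all 7453 probe sets, although 6 subunit genes and 16.5% of all probe sets had an unadjusted p under 0.05. Its median was -0.42 over the subunit genes and -0.04 over all probe sets, and -0.15 over the subunit genes without the outlying FVB female array. Leaving out FVB female 3 leaves the outlying array as the sole FVB female. The median was then -0.57 over the subunit genes and -0.08 over all probe sets. Calls of that fit are not given, since they rest on 1 FVB female array.

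Single arrays differed in the same measure. Relative to the FVB mean, the median subunit gene was at 0.04, -0.02 and 0.11 in TNF TG females and -0.08, 0.12 and -0.15 in TNF TG males of 3 weeks. It was at -0.30 on the outlying FVB female array and -0.04 on FVB female 3, and at -0.0090, 0.12 and 0.21 on FVB males 1, 2 and 3. The 6 TNF TG arrays lay inside the range of the 5 FVB arrays, but TNF TG males 1 and 3 lay below the other 4 FVB arrays when the outlying one was set aside. The Actb 3' to 5' signal ratio, a sign of RNA quality, was 1.12 to 1.44 on TNF TG arrays of 3 weeks and 1.29 to 1.97 on FVB arrays. Its part in the subunit values was not tested.

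**Figure D4:**
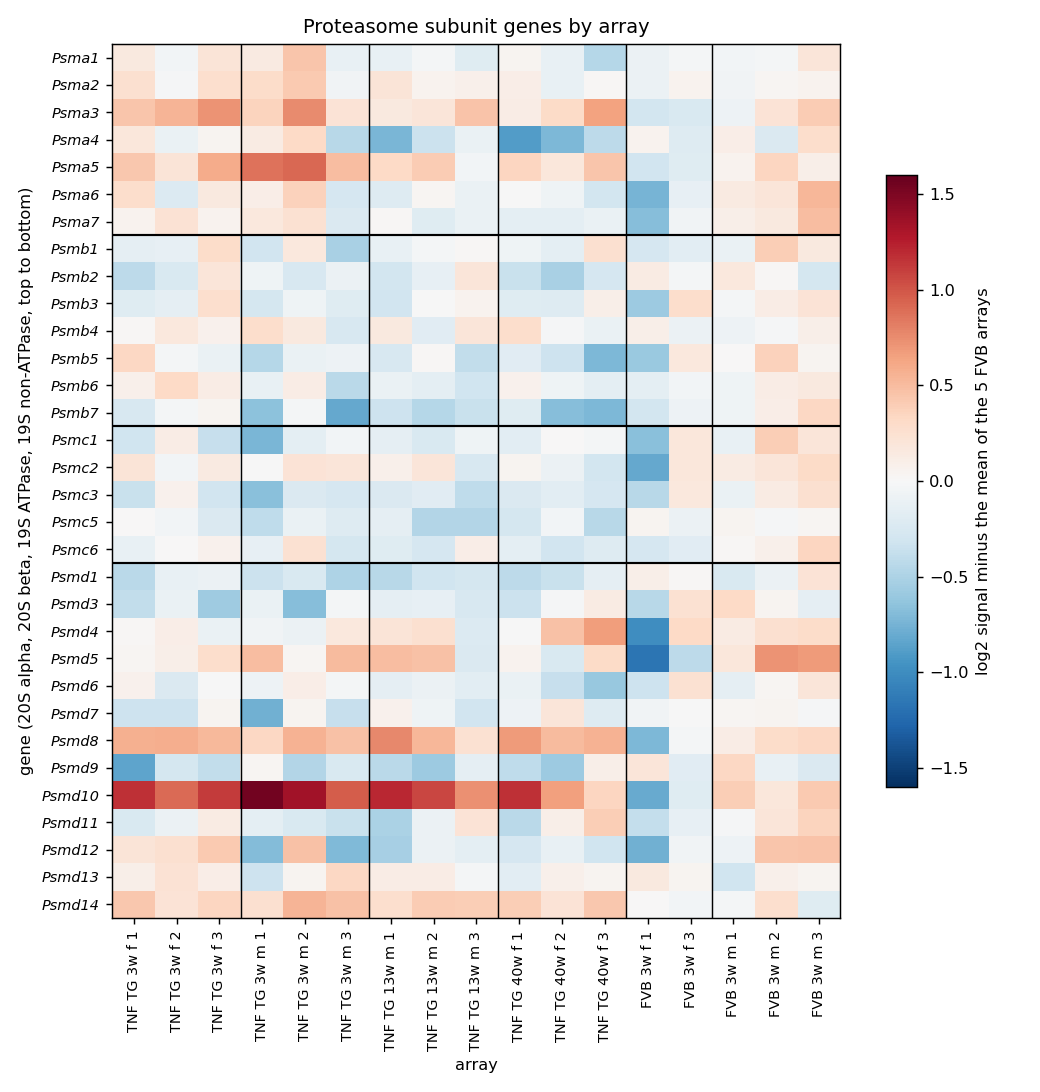
Log2 signal of each tested subunit gene (rows, by class) on each of the 17 arrays (columns), relative to the mean of the 5 FVB arrays. Psmd10 is darkest red on most of the TNF TG arrays, but not on all of them. The first FVB female column is blue for most rows, with 8 of 32 genes above the FVB mean.

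With age no constitutive subunit gene rose or fell in TNF TG hearts. The ages share the 3-week TNF TG arrays with the comparison against FVB hearts, and no FVB array of 13 or 40 weeks was analysed here. In males of 13 against 3 weeks, 0 of 32 subunit genes passed the test in limma, against 0.523% of all probe sets, and 1 had an unadjusted p under 0.05. The median log2 difference was -0.02 and the range -0.53 to 0.26. The lowest genes were Psma5 (-0.53, adjusted p = 0.322) and Psma4 (-0.40), and the highest were Psmd7 (0.26), a lid subunit, and Psmb1 (0.18). Psma5 had signals of 1456.6, 1544.3 and 1126.9 at 13 weeks, against 2122.4, 2207.2 and 1636.8 in TNF TG males of 3 weeks. The groups of Psma5 did not overlap, and the difference missed the threshold. The share of all probe sets without overlap was not counted for the age changes.

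In females of 40 against 3 weeks, 0 of 32 subunit genes passed the test in limma, against 0.671% of all probe sets (0.295% lower), and 2 had an unadjusted p under 0.05, both lower. The median log2 difference was -0.16, against 0.0092 over all probe sets, with 23 of 32 genes below 0. For the core the median was -0.22 with 13 of 14 genes below 0, and for the cap it was -0.06. The Actb 3' to 5' signal ratio was 1.39 to 1.77 at 40 weeks. On the TNF TG arrays of 3 weeks, both sexes, it was 1.12 to 1.44, and its part was not tested. The lowest genes were Psma4 (-0.72, adjusted p = 0.252) and Psmd12 (-0.53), a lid subunit, and the highest were Psmd4 (0.37) and Psmd3 (0.28). Psma4 had signals of 2049.7, 2312.7 and 2844.4 at 40 weeks, against 4312.5, 3524.7 and 3926.9 in TNF TG females of 3 weeks. These groups did not overlap, and the difference did not pass adjustment over all probe sets. Here too the share of all probe sets without overlap was not counted.

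All 7 alpha genes lay below 0 at both ages, with medians of -0.17 at 13 weeks and -0.21 at 40 weeks, while the beta genes had medians of 0.06 and -0.23. Both age changes count from the 3-week TNF TG arrays of their own sex. The test of the difference between the age changes called 0 of 32 subunit genes and 0 of 7453 probe sets in limma, with 0 subunit genes and 214 probe sets at an unadjusted p under 0.05. The inducible genes Psmb8, Psmb9 and Psmb10 had age differences of -1.01, -1.35 and -0.59 at 13 weeks (adjusted p = 0.0982, 0.227 and 0.359) and of -0.23, -0.46 and 0.02 at 40 weeks.

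Psmb5 had signals of 2020.6, 2445.8 and 1837.5 at 13 weeks and 2118.4, 1914.6 and 1462.0 at 40 weeks. Psmb6 had 2124.8, 2050.4 and 1823.5 at 13 weeks and 2383.5, 2166.4 and 2046.6 at 40 weeks. Psmb7 had 2062.5, 1889.2 and 2026.0 at 13 weeks and 2261.7, 1612.5 and 1578.9 at 40 weeks. At 13 weeks the log2 differences from TNF TG males of 3 weeks were 0.01, -0.05 and 0.12 for Psmb5, Psmb6 and Psmb7, and the groups overlapped. At 40 weeks the differences from TNF TG females of 3 weeks were -0.48, -0.23 and -0.45, with limma adjusted p of 0.545, 0.792 and 0.545. All 40-week values of Psmb5 and Psmb6 lay below those females, as did 2 of the 3 values of Psmb7. With 3 arrays on each side and no such share counted over all probe sets, this is a description only. Psmd10 had signals of 297.5, 270.5 and 214.8 at 13 weeks and 289.9, 203.3 and 164.4 at 40 weeks, the lowest of which lay within the FVB range of 3 weeks.

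**Figure D5:**
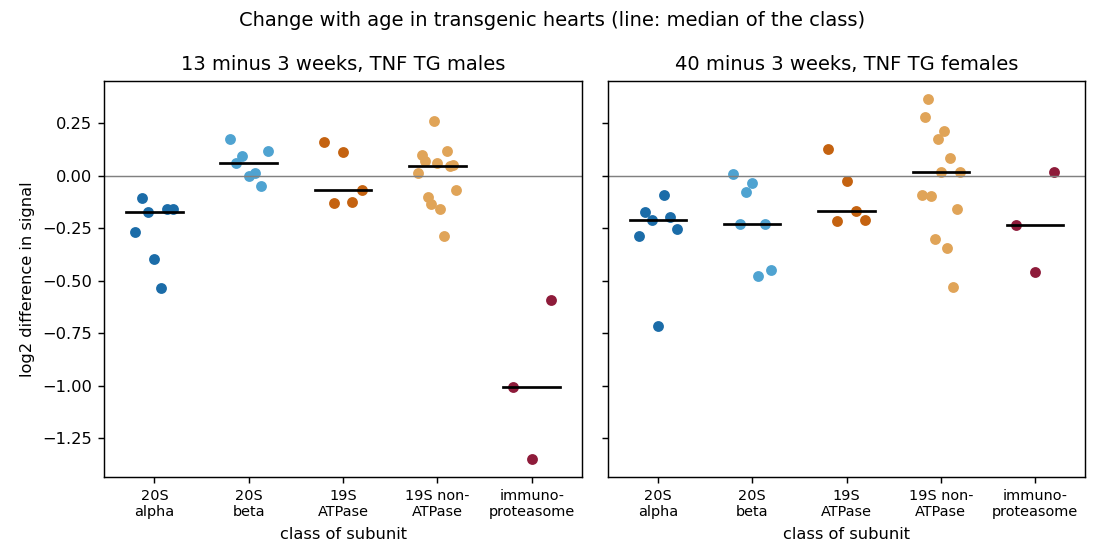
Log2 difference in signal with age in TNF TG hearts (y), 13 minus 3 weeks in males (left) and 40 minus 3 weeks in females (right), for each tested gene by class of subunit (x), with a line at the class median. The constitutive genes lie between -0.72 and 0.37, and none passed the test at either age.

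Genes that act around the proteasome were also counted at 3 weeks, from lists chosen by function, and their counts stand beside the 46.6% of all probe sets called. Among activators, Psme1, a subunit of the interferon-induced activator that can take the place of the 19S cap, rose (0.53, limma adjusted p = 0.023), Psme4 fell (-0.57, adjusted p = 0.0309) and Psme3 had -0.15. Psme2, Trim63 and Fbxo32 were not analysed here. Of the 8 assembly and maturation genes, 3 of which are the chaperones above, Psmd10 rose and Psmg3, a chaperone of core assembly, fell (-0.95, adjusted p = 0.00616), with a median of 0.08.

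Of the 4 tested regulators of subunit transcription, Nfe2l2, a factor of the antioxidant response, rose (0.94, limma adjusted p = 8.27e-05). Nfe2l1, the factor that raises subunit genes when proteasomes are impaired, fell (-0.50, adjusted p = 0.00723). The other 2, Mafg and Mafk, did not pass the test. Of the 8 receptors, shuttles and bound deubiquitinases, the shuttle Ubqln2 rose (0.72, adjusted p = 0.0179), and Rad23b had -0.29.

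Of the 16 tested ubiquitin-conjugating enzymes 3 rose and 3 fell, with a median of -0.01. The smallest p-values in that list were those of Ube2b (-0.65, limma adjusted p = 7.79e-04) and Cdc34 (-0.62, adjusted p = 8.30e-04). Of the 4 tested ubiquitin ligases, the chaperone-linked ligase Stub1 fell (-0.38, adjusted p = 0.0468), and Traf6 had 0.21. The activating enzyme subunit Uba3, alone in its list, had 0.05 (adjusted p = 0.833).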

How the data were processed

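Total RNA of mouse hearts was measured on Affymetrix U74Av2 arrays, 1 array per sample per the labels. Each probe set has a linear intensity (signal) as deposited, brought by the authors to a common level, with trimmed means of 499.2 to 499.9. The authors' software is not given in the sources used here. Groups, sexes and ages came from the sample titles.

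Of 18 columns 17 are distinct, since FVB female 1 and 2 hold the same values. A floor of 44.675, the 25th percentile over the arrays together, replaced lower signals before log2 was taken. After removal of 66 control probe sets, the brightest 60% of 12422, 7453 probe sets, were tested with limma 3.58.1 in R 4.3.3 (6 group means, two-sided, 11 residual and 4.89 prior degrees of freedom), with Benjamini-Hochberg adjustment over all of them and calls at 0.05. The fit was also run on simulated data with independent noise and few changed probe sets, a setting that differs from these data. The number of arrays limits the precision. Symbols came from the platform annotation, which can be old, and from a probe set with 1 symbol only; promoters came from RefSeq.

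Every subunit gene could be named by its log2 difference. Array values were given for Psmb5, Psmb6 and Psmb7 and for the highest and lowest gene of each class, for age changes the 2 highest and 2 lowest genes were named, and in each further list the 2 genes of smallest p. Array values of Psma3, Psmd8, Psmd14, Psmd1, Psmc4 and Psmd2 were added because of their values. The members and lists were chosen with earlier results of these data known. The labels give same-numbered arrays of different groups no link beyond the number. Of 40 such pairs 15 correlated over 0.1 in their deviations from the group means, from -0.336 to 0.466. Pairs of different number were not compared, so a batch shared by number was not tested. Alternatives were a common median, quantile normalisation, a 40th percentile floor, log2(signal + 50), no filter, the brightest 40%, array weights, an intensity trend with robust variance, a fit of the groups compared, a replicate block, averaged probe sets of a gene, both identical columns, and leaving out doubted or single arrays.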

Additional observations from a re-analysis of the deposited data

Results flagged for a closer look

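Among the 36 proteasome genes examined in each group at 3 weeks, 4 FVB values lay far from the other FVB arrays by Dixon's criterion, and 0 TNF TG values did. Chance marks about 1 in 20 groups. Psmc2 was at 1195.4 on the outlying FVB female array, against 2305.1 on the nearest FVB array. On the same array Psmd4 was at 898.7, against 1964.6 on the nearest. Psma1 was highest on FVB male 3, at 762.4, against 656.2, and Psmd13 was lowest on FVB male 1, at 764.0, against 981.7. None of these 4 genes was called at 3 weeks, and Psmc2 was called higher without FVB female 3. The causes were not tested.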

How the results depend on the processing

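Of the 5 genes that rose at 3 weeks, Psma5 remained called in all 32 alternatives. Psmd10 did in 31, since the brightest 40% of probe sets left it untested. The fit without the outlying FVB female array is counted 2 times among the 32, as a doubted and as a single array. Psma3 lost its call in 2 and Psmd8 and Psmd14 in 1 each, with the values given above. Leaving out both sets of doubted FVB arrays together, chosen after seeing the data, left 3 genes called higher and 1 lower (Psmc3), with fewer arrays. Against 0 genes called lower, 1 was called under quantile normalisation (Psmd9), without a filter, under an intensity trend with robust variance and without FVB male 1 and 2 (Psmd1 each), and 2 with both identical columns kept or without the outlying FVB female array. Leaving out 1 array at a time gave 5 to 7 genes higher, 7 without FVB female 3, and 0 to 2 lower, 2 of them (Psmb7 and Psmd7) without TNF TG male 2 and 1 without FVB male 1. It gave 0 to 8 genes in the test between sexes, and Psmb7 between -0.38 and -0.18. The cap median was -0.19 without all doubted FVB arrays and -0.15 to 0.03 with 1 array left out. At 40 weeks array weights called 2 genes lower. The causes were not tested. The core median was -0.0012 to 0.15 with 1 array left out, and no further call of the comparison over both sexes was lost or changed direction. Within a sex the counts moved more: 1 to 10 genes called in females and 0 to 6 in males over the 32 alternatives, with 10 in females without FVB female 3 and with both identical columns kept. With the replicate number as a block, a pairing that the labels do not state, 5 genes were higher and 0 lower. Probe sets near the floor, such as Psmc4 and Psmd2, limit what could be tested.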
